A study of Mus musculus with 16 samples.

Results

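Genes of the transforming growth factor-β (TGF-β) pathway were followed in mouse CD4+ T cells with and without Foxp3, the transcription factor that marks regulatory T cells. The set was defined by gene symbol and held 10 members: the ligand gene Tgfb1, the receptor genes Tgfbr1 and Tgfbr2, the signal carriers Smad2, Smad3 and Smad4, the inhibitors Smad7 and Ski, and Lrrc32 and Itgb8, whose products hold and release the latent ligand. Of these, 8 had a row among the 16475 genes of the expression table. Lrrc32 and Itgb8 had no row and were not analysed here. A member was included whatever its values, and no filter on low values was applied.

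The study asked how Foxp3+ and Foxp3- cells differ in the mRNA they hold and in the mRNA they load with ribosomes. CD4+ cells were taken from lymph nodes and spleens of C57BL/6 mice with a GFP reporter knocked into the Foxp3 gene, and all groups came from these reporter mice. They were sorted on CD4 and GFP, to over 97% purity by the study's methods, and used directly ex vivo or after 36 h of activation. Activation used plate-bound antibodies to CD3 and CD28 at 5 µg/ml with human IL-2 at 100 U/ml, and cycloheximide, which holds ribosomes on mRNA, was used at 100 µg/ml in both states. From each subset in each state, cytosolic mRNA and polysome-associated mRNA carrying at least 3 ribosomes were hybridised to Affymetrix arrays, which gave 8 groups of 2 arrays. Arrays 3 and 7 held cytosolic and arrays 4 and 8 polysome-associated mRNA of ex vivo Foxp3- cells, and arrays 1 and 5 and arrays 2 and 6 the same fractions of ex vivo Foxp3+ cells. Arrays 9 and 11 held cytosolic and arrays 10 and 12 polysome-associated mRNA of activated Foxp3- cells, and arrays 13 and 15 and arrays 14 and 16 those of activated Foxp3+ cells. Each ex vivo sample pooled RNA of 2 experiments. By their names the arrays formed 3 series, of which the first held the ex vivo cells of both subsets and the others the activated Foxp3- and the activated Foxp3+ cells. Between states, and between the subsets after activation, array series and group can therefore not be told apart. Where a gene is said to be raised or lowered by activation, this means the difference between activated and ex vivo arrays, and its cause was not tested.

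TGF-β is made as an inactive complex that has to be released before it can act. The freed ligand binds the type II receptor, which recruits and phosphorylates the type I receptor, and this kinase in turn phosphorylates Smad2 and Smad3. These join Smad4 and enter the nucleus to regulate transcription, while Smad7 blocks the receptor and Ski represses Smad-dependent transcription. In CD4+ T cells the pathway restrains proliferation and effector differentiation and can induce Foxp3 in naive cells.

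Values are log2 intensities, so that a difference of 1 is a doubling of signal, and they are relative to the other genes on the same array. Every test of a difference was a limma fit to the 16 arrays together, with Benjamini-Hochberg adjustment across the 16475 genes. A gene was called at an adjusted p under 0.15 for differences between the subsets and for translation in activated cells, under 0.3 for translation ex vivo, and under 0.05 otherwise, the first 2 of these following the study's own false discovery rates. For Foxp3 and T cell markers the labels of the sorted cells held. Foxp3 averaged 10.47 in Foxp3+ and 3.75 in Foxp3- ex vivo cytosolic mRNA, and 11 measured T cell markers averaged between 9.35 and 10.19 on every array. The 7 B cell markers averaged 3.68 to 4.94 and the 6 CD8 T and NK cell markers 4.01 to 5.24. Single genes of these lists were higher ex vivo. In Foxp3- and Foxp3+ ex vivo cytosol Prf1 averaged 9.03 and 6.93, and Cd79b 8.05 and 8.79. After activation these were 5.25 and 6.35, and 5.47 and 6.36. Their part in the member differences was not tested. Replicate arrays correlated at r = 0.980 to 0.992 across genes ex vivo and at 0.887 to 0.945 after activation. The pooled spread of the members followed this, with an SD between replicates of 0.11 to 0.48 ex vivo and 0.46 to 1.21 after activation. A fit over the arrays of 1 state alone was therefore given beside the main fit for the subset differences. Groups of 2 arrays often did not overlap. Between the subsets this held for 63.8% and 60.3% of all genes ex vivo, cytosolic first, and for 49.9% and 55.7% after activation. Between the states it held for 65.1% to 71.7% of all genes, by subset and fraction. For all 8 ex vivo arrays against all 8 activated arrays, no share over all genes was counted. In bulk samples, fewer cells with a transcript and less transcript per cell cannot be told apart.

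**Figure D1:**
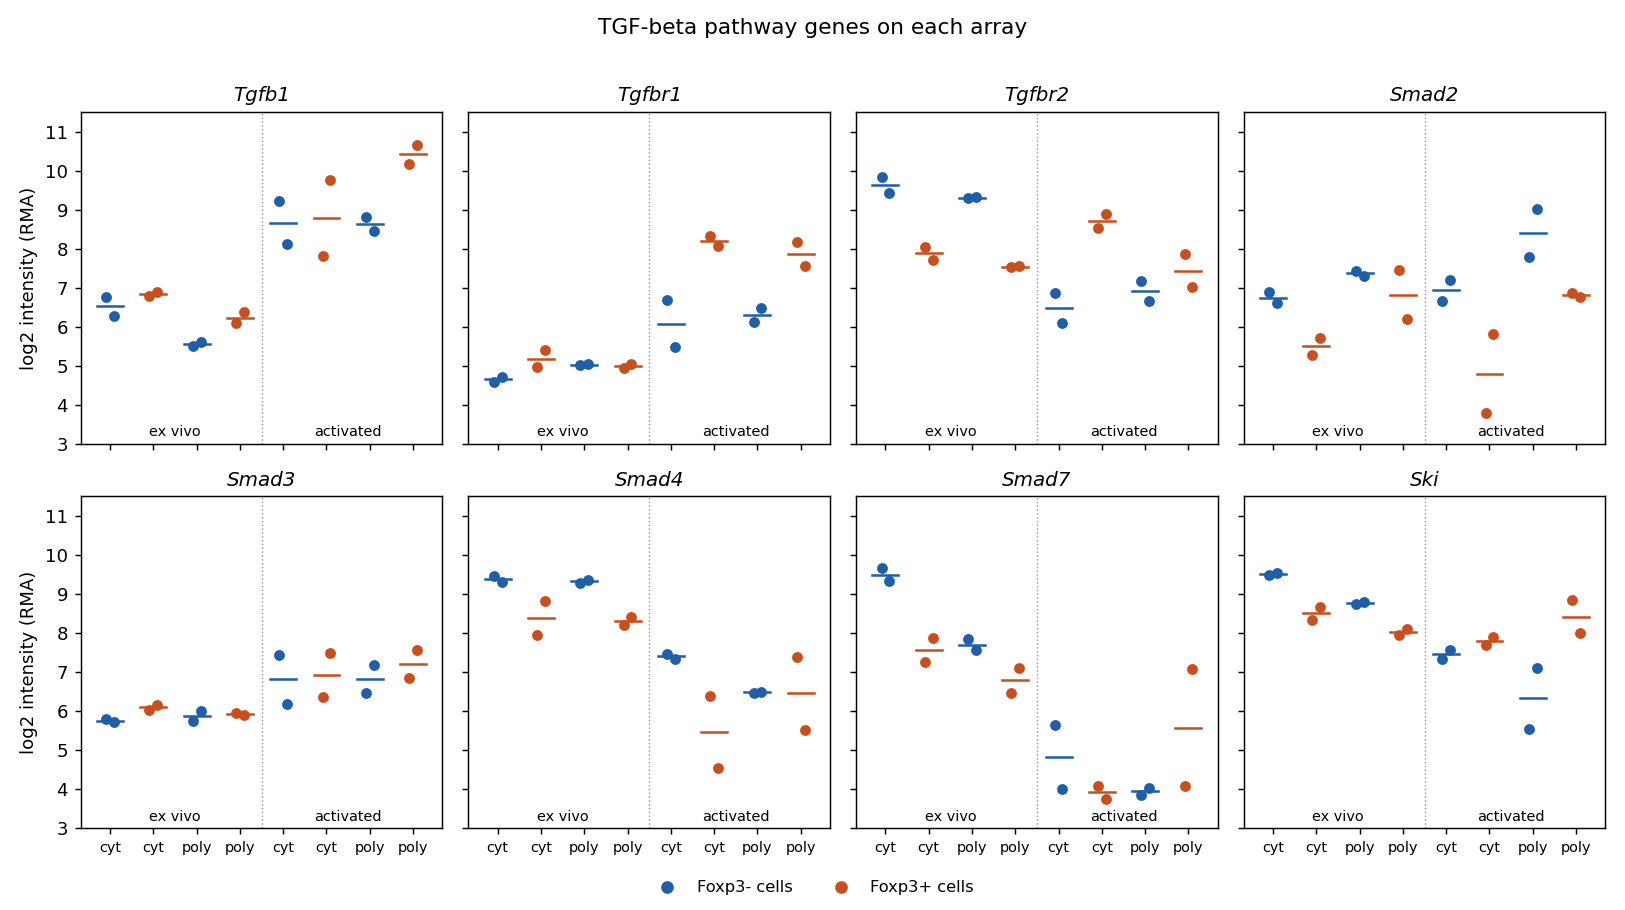
Log2 intensity of the 8 measured TGF-β pathway genes on each of the 16 arrays, by RNA fraction (cyt, cytosolic; poly, polysome-associated) and state, with Foxp3- cells in blue and Foxp3+ cells in orange. Points are single arrays and lines are means of 2. Tgfb1 and Tgfbr1 lie higher after activation, Smad4 and Smad7 lower, and Tgfbr2 changes its order between the subsets.

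The ligand gene Tgfb1 was higher after activation in both subsets, and after activation its polysome-associated mRNA was higher in Foxp3+ cells. Ex vivo, its cytosolic level was 6.77 and 6.29 in Foxp3- cells and 6.80 and 6.91 in Foxp3+ cells. The polysome-associated level ex vivo was 5.51 and 5.61 in Foxp3- cells and 6.10 and 6.37 in Foxp3+ cells. All 8 ex vivo arrays lay below all 8 arrays of activated cells. After activation, the cytosolic level was 9.22 and 8.13 in Foxp3- cells and 7.81 and 9.75 in Foxp3+ cells, so that the subsets overlapped. In polysomes it was 8.83 and 8.47 in Foxp3- cells and 10.17 and 10.67 in Foxp3+ cells, and the last 2 arrays were the highest of all 16.

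Activation raised Tgfb1 by 2.15 ± 0.53 (SE) in cytosolic and by 3.09 ± 0.53 in polysome-associated mRNA of Foxp3- cells (limma, adjusted p = 0.0134 and 0.00128). In Foxp3+ cells it rose by 1.93 in the cytosol and by 4.18 in polysomes, an 18.1-fold difference (limma, adjusted p = 0.0194 and 0.000287). Both polysome calls held under each of 22 alternatives. The cytosolic call in Foxp3- cells was lost without array 7 or 9 (adjusted p = 0.0928 and 0.0916), and that in Foxp3+ cells without array 1, 5 or 15 and in a fit of only the groups compared, with adjusted p from 0.0781 to 0.124. Without array 15 the difference in Foxp3+ cytosol was 0.96.

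Between the activated subsets, Tgfb1 in polysomes was 1.77 ± 0.53 higher in Foxp3+ cells (3.42-fold, limma adjusted p = 0.0462), whereas the cytosolic difference was 0.11 ± 0.53 with a 95% interval from -1.07 to 1.29. The polysome call was lost in the fit of activated arrays alone (adjusted p = 0.228) and without array 12 (1.59, adjusted p = 0.173). The sign of the cytosolic difference rested on single arrays, since it was 1.08 and called without array 13 (adjusted p = 0.130) but -0.86 without array 15 (0.224) and -0.44 without array 11 (0.676). Of 6 measured markers of megakaryocytes and platelets, cells rich in TGF-β1, 4 were also called higher in activated Foxp3+ polysomes and 0 lower. In this comparison 32.4% of all genes were called in either direction, and 4 of 9 stromal and endothelial markers were called higher and 0 lower. The platelet markers averaged 4.97 to 5.29 against 4.28 to 4.35 on the polysome arrays of Foxp3- cells, beside array medians of 4.85 to 5.07. Of these, Pf4 averaged 6.69 against 4.52 and Ppbp 3.0 against 2.89, and their part in the Tgfb1 difference was not tested.

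The receptor chains took different courses. Tgfbr1, the type I receptor kinase, rose with activation in both subsets and more steeply in Foxp3+ cells by value. Tgfbr2, the type II receptor that binds the ligand, fell with activation in Foxp3- cells, and its order between the subsets turned round. The 250 bases before the outermost annotated start of each receptor gene are shown because these 2 genes code for the chains of 1 receptor and moved in opposite directions in Foxp3- cells. They are from RefSeq on GRCm38.p6 and read 5′ to 3′ on the gene's strand. Capitals mark a GC box (GGGCGG) or a CCAAT box (CCAAT, or ATTGG where it lies on the other strand).
Tgfbr1, chr4:47352972-47353221, plus strand: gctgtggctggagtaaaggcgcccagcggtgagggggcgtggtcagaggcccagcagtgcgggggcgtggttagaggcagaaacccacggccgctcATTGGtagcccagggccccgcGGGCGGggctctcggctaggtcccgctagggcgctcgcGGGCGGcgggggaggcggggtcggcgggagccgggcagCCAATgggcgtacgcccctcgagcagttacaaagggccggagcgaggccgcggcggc
Tgfbr2, chr9:116175364-116175613, minus strand: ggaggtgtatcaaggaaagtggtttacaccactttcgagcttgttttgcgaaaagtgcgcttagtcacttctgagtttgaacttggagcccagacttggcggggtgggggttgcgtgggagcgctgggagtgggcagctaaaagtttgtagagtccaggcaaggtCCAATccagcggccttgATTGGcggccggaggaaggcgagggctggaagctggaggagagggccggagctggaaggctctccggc
The Tgfbr1 stretch held 2 GC boxes and 2 CCAAT boxes at 74.8% G and C, and the Tgfbr2 stretch 0 GC boxes and 2 CCAAT boxes at 58.4%. Searched on both strands, 32.7% of 32851 mouse promoter stretches of 250 bases held a GC box, 33.8% a CCAAT box and 12.4% a TATA box (TATAAA), and neither receptor stretch held the last. Of the other members, Smad2, Smad4, Smad7, Lrrc32 and Itgb8 were not counted singly. The stretches of Tgfb1 and Ski held 5 GC boxes each and that of Smad3 held 2, with no CCAAT box in any of them. These are matches of letters, and no factor was measured on them.

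Tgfbr1 lay in a narrow band ex vivo. Its cytosolic level was 4.59 and 4.73 in Foxp3- cells and 4.99 and 5.40 in Foxp3+ cells, and its polysome-associated level 5.02 and 5.05 in Foxp3- cells and 4.96 and 5.06 in Foxp3+ cells. After activation it was 6.69 and 5.48 in the cytosol and 6.12 and 6.49 in polysomes of Foxp3- cells. In activated Foxp3+ cells it reached 8.33 and 8.07 in the cytosol and 8.19 and 7.57 in polysomes, and these 4 arrays were the highest of the 16. No activated array overlapped an ex vivo array.

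The ex vivo arrays lay close to the array medians of 4.85 to 5.07 and carry no detection calls, so the differences from them are given without folds. Activation raised Tgfbr1 in Foxp3+ cells by 3.01 ± 0.36 in the cytosol and by 2.87 ± 0.36 in polysomes (limma, adjusted p = 0.000201 and 0.000256), and both calls held under all 22 alternatives. In Foxp3- cells the rises were 1.42 and 1.27 (limma, adjusted p = 0.0145 and 0.0207). The first of these was lost without array 3, 7 or 9 and in a fit of only the groups compared (adjusted p = 0.0616 to 0.0911), and the second without array 4, 8 or 12 (0.0869 to 0.113). Without array 9 the cytosolic rise was 0.82. The activated subsets differed by 2.12 ± 0.36 in the cytosol and 1.57 ± 0.36 in polysomes (4.34-fold and 2.97-fold, limma adjusted p = 0.00512 and 0.0160), higher in Foxp3+ cells. In the fit of activated arrays alone the adjusted p was 0.109 and 0.151, the second of which misses the threshold, and in the fit of only the groups compared both calls were lost (0.184 and 0.167). The rise with activation exceeded that of Foxp3- cells by 1.59 ± 0.51 in the cytosol and 1.60 ± 0.51 in polysomes, which did not pass the test of the change (limma, adjusted p = 0.148 and 0.136). It did so in the cytosol without array 9 (2.19, adjusted p = 0.0315), against 0.98 without array 11 (0.265), and in polysomes without array 9 or 11 (adjusted p = 0.0465).

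Tgfbr2 was the member called lower in Foxp3+ cells ex vivo in both fractions. Its ex vivo cytosolic level was 9.85 and 9.43 in Foxp3- cells against 8.06 and 7.71 in Foxp3+ cells, and its polysome-associated level 9.31 and 9.32 against 7.54 and 7.55. The subsets did not overlap in either fraction. After activation the cytosolic level was 6.86 and 6.10 in Foxp3- cells and 8.54 and 8.90 in Foxp3+ cells, again without overlap but in the opposite order. In polysomes of activated cells it was 7.17 and 6.67 in Foxp3- cells and 7.87 and 7.02 in Foxp3+ cells, which overlapped.

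Ex vivo, the Foxp3+ minus Foxp3- difference of Tgfbr2 was -1.75 ± 0.34 in the cytosol and -1.77 ± 0.34 in polysomes (3.37-fold and 3.41-fold, limma adjusted p = 0.0318 and 0.0326). The fit of ex vivo arrays alone gave adjusted p = 0.00163 and 0.00185. The cytosolic call was lost without array 1, 3 or 5 (adjusted p = 0.158 to 0.344) and the polysome call without array 2, 4, 6 or 8 (0.155 to 0.234), with differences from -1.54 to -1.93 in these fits. The actin control probes read higher at the 3′ end than at the 5′ end, a difference that reflects how complete the amplified RNA was, by 4.16 to 4.64 on the ex vivo Foxp3+ arrays and by 0.82 to 1.38 on the ex vivo Foxp3- arrays, and by -0.59 to -0.20 on all activated arrays. It thus moved with the subset ex vivo and with the state in both subsets, and its part in the ex vivo subset differences, in the differences between states and in the changes of the subset difference was not tested. After activation Tgfbr2 was 2.24 ± 0.34 higher in Foxp3+ cytosol (4.72-fold, limma adjusted p = 0.00321), a call that held under all 23 alternatives. The difference in polysomes was 0.52 ± 0.34 (limma, adjusted p = 0.305) with a 95% interval from -0.23 to 1.28, and it was 0.95 and called without array 16 (adjusted p = 0.101) but 0.10 without array 14 (0.885) and 0.27 without array 12 (0.712).

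Activation lowered Tgfbr2 in Foxp3- cells, with differences of -3.16 ± 0.34 in the cytosol and -2.40 ± 0.34 in polysomes (8.93-fold and 5.27-fold, limma adjusted p = 0.000106 and 0.000374), and both calls held under all 22 alternatives. In Foxp3+ cells the differences were 0.83 ± 0.34 and -0.10 ± 0.34 (limma, adjusted p = 0.0876 and 0.851). The first was 1.43 and called after cyclic loess normalization (adjusted p = 0.0103). The change of the subset difference from ex vivo to activated cells was 3.99 ± 0.48 in the cytosol (limma, adjusted p = 0.00348), also past the threshold under all 22 alternatives. In polysomes it was 2.29 ± 0.48 (limma, adjusted p = 0.0347), and 10 of 22 alternatives kept it past the threshold. The call was lost with an intensity trend, in a fit of only the groups compared and without any 1 of arrays 1 to 8, 12 or 14, with adjusted p from 0.0516 to 0.129.

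Of the receptor-activated signal carriers, Smad2 was lower in activated Foxp3+ cells than in activated Foxp3- cells, and Smad3 was called in no comparison. The cytosolic level of Smad2 ex vivo was 6.89 and 6.60 in Foxp3- cells and 5.29 and 5.72 in Foxp3+ cells, and its polysome-associated level 7.45 and 7.30 against 7.46 and 6.21. After activation it was 6.67 and 7.20 in Foxp3- cytosol and 3.80 and 5.82 in Foxp3+ cytosol. In polysomes of activated cells it was 7.80 and 9.02 in Foxp3- cells and 6.87 and 6.77 in Foxp3+ cells. The activated subsets did not overlap in either fraction, although array 13 lay far below array 15 in Foxp3+ cytosol.

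Smad2 was lower in activated Foxp3+ cells, by a difference of -2.13 ± 0.62 in cytosolic and -1.59 ± 0.62 in polysome-associated mRNA (limma, adjusted p = 0.0486 and 0.102). Both calls were lost in the fit of activated arrays alone (adjusted p = 0.221 and 0.281), in a fit of only the groups compared and with array weights. The cytosolic call was also lost without array 11 or 13 (-1.12 without array 13, adjusted p = 0.153 and 0.232), and the polysome call without array 12, 14 or 16 (-0.98 without array 12, adjusted p = 0.190 to 0.414). Ex vivo the cytosolic difference was -1.24 ± 0.62, not called over all arrays (limma, adjusted p = 0.461) and called over ex vivo arrays alone (0.0607). The activation differences of Smad2 ran from -0.69 to 1.04 and none was called, except in Foxp3+ cytosol without array 15 (-1.70, adjusted p = 0.0466), where the value was 0.32 without array 13 (0.720).

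Smad3 spanned 1.45 between its lowest and highest group mean, the narrowest span of the 8 members. Its ex vivo arrays lay between 5.72 and 6.17 and its activated arrays between 6.18 and 7.56, so that the states did not overlap. In activated cells the cytosolic level was 7.45 and 6.18 in Foxp3- cells and 6.37 and 7.49 in Foxp3+ cells. The subset differences ran from 0.06 to 0.37, and the 95% interval of the largest, in activated polysomes, was -0.63 to 1.38. The differences between states were 0.83 to 1.28, with an adjusted p of 0.0564 to 0.192 (limma). The largest, in Foxp3+ polysomes, was called under 6 of 22 alternatives, namely cyclic loess, genes above the median mean, and without array 9, 11, 13 or 15 (adjusted p = 0.0290 to 0.0486), and those in Foxp3- cells with array weights (0.0412 and 0.0418) or, in the cytosol, without array 11 (1.70, adjusted p = 0.0319), against 0.42 without array 9 (0.570).

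Smad4, the shared partner of the receptor-activated Smads, fell with activation in both subsets. Ex vivo its cytosolic level was 9.47 and 9.31 in Foxp3- cells and 7.96 and 8.82 in Foxp3+ cells, and its polysome-associated level 9.29 and 9.37 against 8.21 and 8.41. After activation it was 7.47 and 7.34 in Foxp3- cytosol and 6.38 and 4.54 in Foxp3+ cytosol, and 6.47 and 6.50 against 7.40 and 5.53 in polysomes. All 8 activated arrays lay below all ex vivo arrays. The replicate arrays of activated Foxp3+ cells were the farthest apart, in both fractions.

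Activation lowered Smad4, with differences of -1.99 ± 0.62 in the cytosol and -2.84 ± 0.62 in polysomes of Foxp3- cells (limma, adjusted p = 0.0360 and 0.00504), and of -2.93 and -1.84 in those of Foxp3+ cells (limma, adjusted p = 0.00498 and 0.0440). The polysome call in Foxp3- cells held under all 22 alternatives. The cytosolic call in Foxp3- cells was lost under 9 of 22, namely cyclic loess and without array 2, 3, 4, 6, 7, 8, 9 or 11, with adjusted p from 0.0510 to 0.153, and that in Foxp3+ cells without array 5 (0.0502) and in a fit of only the groups compared (0.0586). The polysome call in Foxp3+ cells was lost under 15 of 22, namely cyclic loess, only the groups compared, and without any 1 of arrays 1 to 12 or array 16 (-0.91 without array 16, adjusted p = 0.288). In activated cytosol Smad4 was lower in Foxp3+ cells, at -1.94 ± 0.62 (limma, adjusted p = 0.0649), a call lost in the fit of activated arrays alone (0.282), in a fit of only the groups compared (0.292), with array weights (0.160), with cyclic loess (0.201), and without array 9 (0.201) or 15 (-1.03, adjusted p = 0.310). Ex vivo the differences of -1.0 and -1.02 were not called over all arrays (limma, adjusted p = 0.582 and 0.577) and were called over ex vivo arrays alone (0.0408 and 0.0406).

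The inhibitor Smad7 had the widest range of the members, 5.58 between group means, and its drop with activation in Foxp3- cytosol was the largest member difference among the 16 comparisons tested. Ex vivo its cytosolic level was 9.67 and 9.33 in Foxp3- cells and 7.25 and 7.88 in Foxp3+ cells, and its polysome-associated level 7.84 and 7.57 against 6.48 and 7.10. The subsets did not overlap in either fraction. After activation it was 5.65 and 4.0 in Foxp3- cytosol, 3.85 and 4.04 in Foxp3- polysomes and 4.09 and 3.75 in Foxp3+ cytosol. Apart from array 9, at 5.65, these lay below the median of every array, which ran from 4.85 to 5.07, and near the 3.75 of Foxp3 in ex vivo Foxp3- cytosol. They were not shown to be above background, so no fold is given for them. The polysome arrays of activated Foxp3+ cells read 4.08 and 7.07, so that array 16 alone carried an ex vivo level.

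Activation lowered Smad7, with differences of -4.67 ± 0.78 in the cytosol and -3.76 ± 0.78 in polysomes of Foxp3- cells (limma, adjusted p = 0.00152 and 0.00397). In Foxp3+ cytosol it fell by 3.64 ± 0.78 (limma, adjusted p = 0.00554), and these 3 calls held under all 22 alternatives. In Foxp3+ polysomes the difference was -1.21 (limma, adjusted p = 0.271) and, without array 16, -2.71 (adjusted p = 0.00643), against 0.28 without array 14 (0.769). Between the subsets ex vivo the difference of Smad7 was -1.93 ± 0.78 in the cytosol and -0.92 ± 0.78 in polysomes, not called over all 16 arrays (limma, adjusted p = 0.328 and 0.727) and called over ex vivo arrays alone (0.00506 and 0.0712). The first was also called without array 14 or 16 (adjusted p = 0.0608). In activated polysomes the difference of 1.63 (limma, adjusted p = 0.173) was 3.12 and called without array 14 (0.00652), with array 16 then the lone array of its group, and 0.14 without array 16 (0.894). It was also called without array 9 or 11 (0.148).

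Ski, a repressor that binds Smad complexes, was lowered by activation in Foxp3- cells, and after activation its polysome-associated mRNA was higher in Foxp3+ cells. Ex vivo its cytosolic level was 9.50 and 9.55 in Foxp3- cells and 8.35 and 8.67 in Foxp3+ cells, and its polysome-associated level 8.74 and 8.80 against 7.95 and 8.11. The subsets did not overlap, Foxp3- cells being higher. After activation the cytosolic level was 7.35 and 7.58 in Foxp3- cells and 7.69 and 7.91 in Foxp3+ cells, and the polysome-associated level 5.54 and 7.12 against 8.85 and 7.99. Foxp3+ cells were now the higher group in both fractions, again without overlap. The cytosolic difference of 0.335 ± 0.429 was not called (limma, adjusted p = 0.648).

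Activation lowered Ski in Foxp3- cells, with differences of -2.06 ± 0.43 in the cytosol and -2.44 ± 0.43 in polysomes (4.16-fold and 5.42-fold, limma adjusted p = 0.00531 and 0.00141), under all 22 alternatives. In Foxp3+ cells the differences were -0.71 and 0.39 (limma, adjusted p = 0.231 and 0.526). In polysomes of activated cells Ski was 2.09 ± 0.43 higher in Foxp3+ cells (4.26-fold, limma adjusted p = 0.0102), which 22 of 23 alternatives kept, the exception being a fit of only the groups compared (0.232). The ex vivo differences of -1.01 and -0.74 were not called over all arrays (limma, adjusted p = 0.361 and 0.556) and were called over ex vivo arrays alone (0.00713 and 0.0249), the first also without array 10 or 12 (0.114). The subset difference in polysomes changed by 2.83 ± 0.61 from ex vivo to activated cells (limma, adjusted p = 0.0362). This was lost under 10 of 22 alternatives, namely only the groups compared and without any 1 of arrays 1 to 8 or array 14, with adjusted p from 0.0594 to 0.137.

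**Figure D2:**
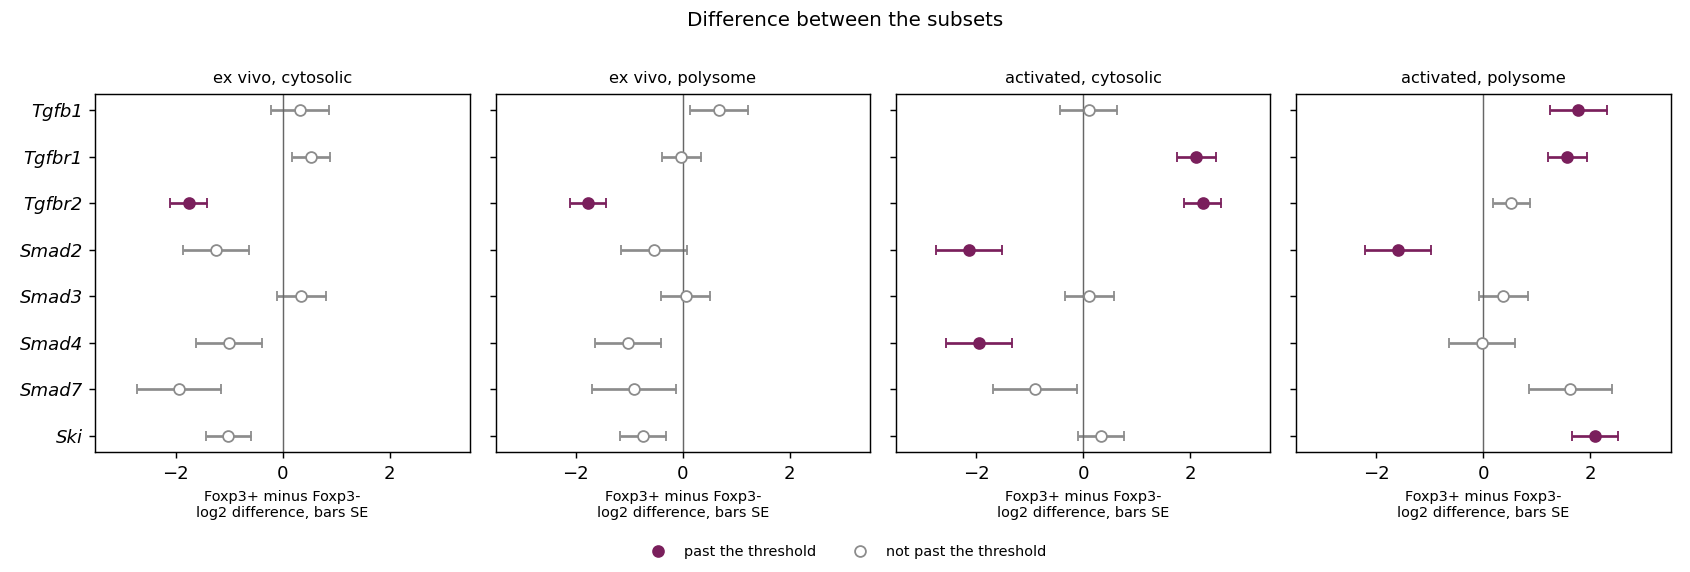
Foxp3+ minus Foxp3- log2 difference of each member in the 4 subset comparisons, with bars of 1 SE from limma over 16 arrays. Filled points passed an adjusted p of 0.15. Tgfbr2 lies at -1.75 and -1.77 ex vivo and at 2.24 and 0.52 after activation.

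Counted over the set, 1 of 8 members was called between the subsets ex vivo in cytosolic mRNA and 1 of 8 in polysome-associated mRNA, Tgfbr2 each time, where 4.64% and 3.87% of all genes were called. After activation 4 of 8 were called in each fraction, where 26% and 32.4% of all genes were. In the cytosol Tgfbr1 and Tgfbr2 were higher and Smad2 and Smad4 lower in Foxp3+ cells. In polysomes Tgfb1, Tgfbr1 and Ski were higher and Smad2 lower. Fitted over the arrays of their own state, 6 and 5 members were called ex vivo (28.5% and 28.6% of all genes) and 2 and 1 after activation (4.87% and 8.31%), so the counts follow the spread that is pooled. The median difference of the members was -1.01 and -0.64 ex vivo, cytosolic first, and 0.11 and 1.05 after activation, beside 0.10, 0.09, 0.13 and 0.20 for all genes.

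**Figure D3:**
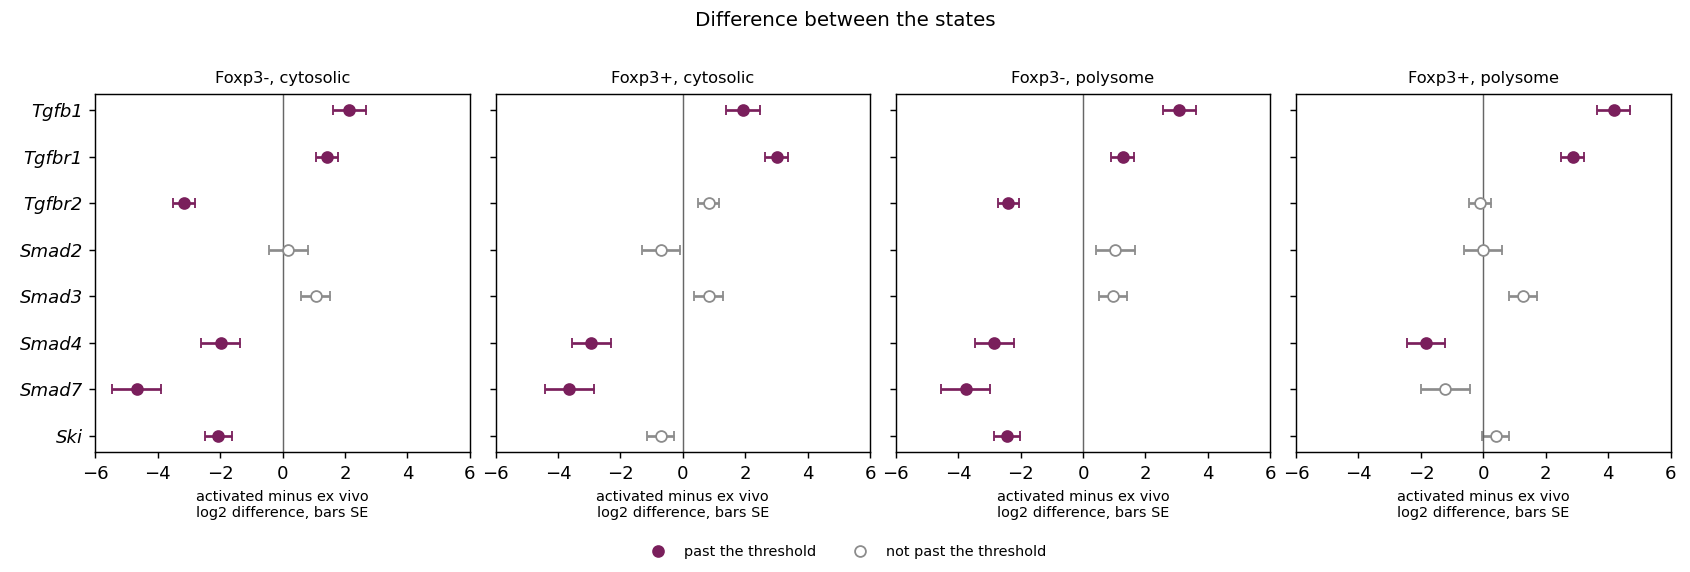
Activated minus ex vivo log2 difference of each member by subset and RNA fraction, with bars of 1 SE from limma over 16 arrays. Filled points passed an adjusted p of 0.05. Smad7 fell by 4.67 in Foxp3- cytosol, Tgfb1 rose by 4.18 in Foxp3+ polysomes, and Tgfbr2 fell in Foxp3- cells, with differences of 0.83 and -0.10 in Foxp3+ cells.

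Between the states, 6 of 8 members were called in each fraction of Foxp3- cells, where 26.1% of all genes were called in the cytosol and 30.6% in polysomes. In both fractions Tgfb1 and Tgfbr1 rose and Tgfbr2, Smad4, Smad7 and Ski fell. In Foxp3+ cells 4 of 8 were called in the cytosol, with Tgfb1 and Tgfbr1 higher and Smad4 and Smad7 lower, and 3 of 8 in polysomes, with Smad7 no longer among them (31.4% and 29.3% of all genes). The direct test of whether the subset difference changed with the state called 1 of 8 members in the cytosol and 2 of 8 in polysomes, beside 2.07% and 2.58% of all genes. These were Tgfbr2 in both and Ski in polysomes. For the other members a call in 1 subset and none in the other was not shown to be a difference between the subsets.

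**Figure D4:**
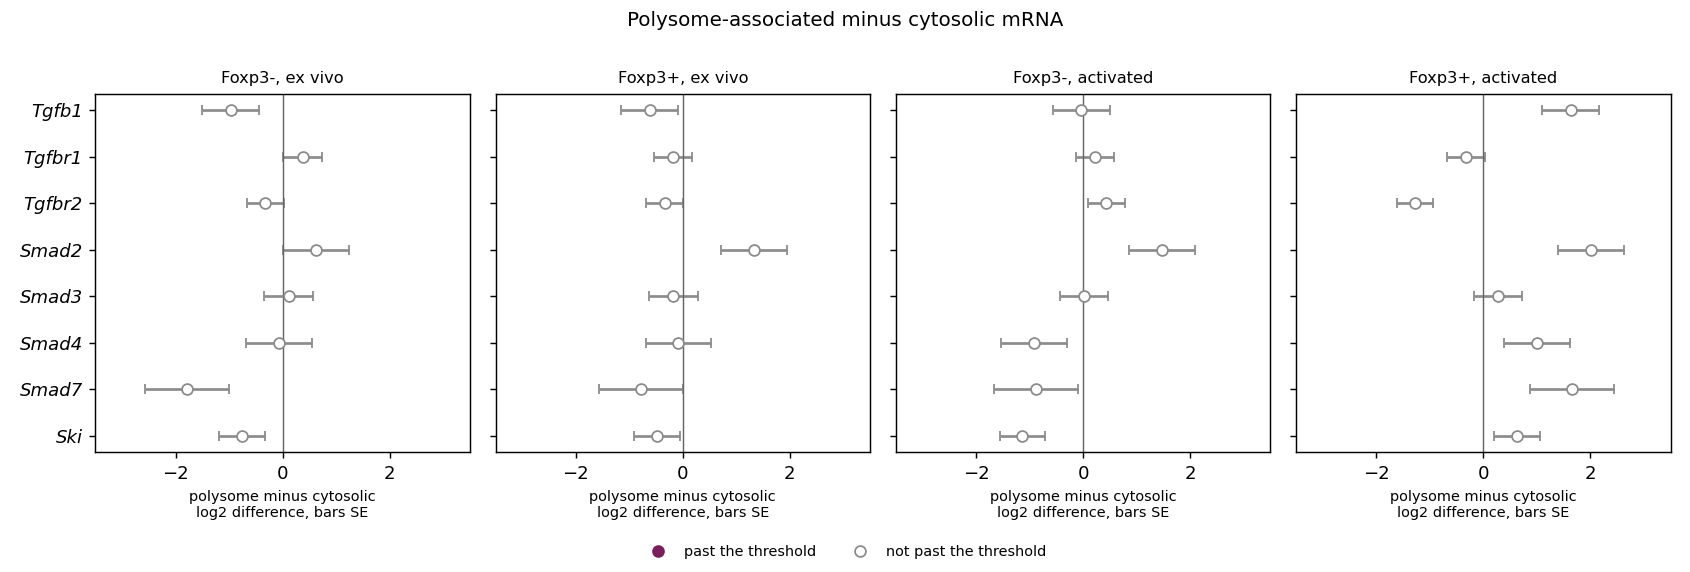
Polysome-associated minus cytosolic log2 difference of each member by subset and state, with bars of 1 SE from limma over 16 arrays. No member passed an adjusted p of 0.05. In activated Foxp3+ cells Smad2 lies at 2.01, Smad7 at 1.65 (0.16 without array 16), Tgfb1 at 1.64 and Tgfbr2 at -1.28.

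The level of each transcript in heavy polysomes was compared with its cytosolic level, each relative to the other genes on its array. It is not the share of the transcript that sits in polysomes. By limma 0 of 8 members were called in any subset and state, where 0.0607% of all genes were called in ex vivo Foxp3- cells, 0.0364% in ex vivo Foxp3+ cells, 3.88% in activated Foxp3- cells and 4.66% in activated Foxp3+ cells. At an unadjusted p under 0.05 there were 1, 0, 2 and 3 members in the same order. In ex vivo Foxp3- cells the difference of Smad7 was -1.79 ± 0.78, which was called over ex vivo arrays alone (limma, adjusted p = 0.0332). In activated Foxp3+ cells the polysome minus cytosolic difference was 2.01 ± 0.62 for Smad2, 1.64 ± 0.53 for Tgfb1 and -1.28 ± 0.34 for Tgfbr2 (limma, adjusted p = 0.0932, 0.111 and 0.0608). Tgfbr2 was called without array 9, 11 or 14 (-1.70 without array 14, adjusted p = 0.0208) and after cyclic loess (0.0386), and it was -0.85 without array 16 (0.215). Tgfb1 and Smad2 were called without array 15 (2.61 and 3.02, adjusted p = 0.00809 and 0.0138), while without array 13 they were 0.66 and 1.0 (0.414 and 0.342). The Smad7 difference there was 1.65 (limma, adjusted p = 0.267) and rested on array 16, being 3.15 and called without array 14 (0.0111) and 0.16 without array 16 (0.918). Ski in activated Foxp3- cells was called without array 12 (-1.92, adjusted p = 0.0182), against -0.35 without array 10 (0.683).

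Differential translation was taken as the polysome minus cytosolic difference in Foxp3+ cells minus that in Foxp3- cells. Ex vivo 0 of 8 members and 0% of all genes were called by limma, with 0 members and 193 genes at an unadjusted p under 0.05. After activation 1 of 8 was called, beside 7.48% of all genes. This was Tgfbr2, at -1.71 ± 0.48 (limma, adjusted p = 0.0983), for which the polysome difference was 0.44 in Foxp3- cells and -1.28 in Foxp3+ cells. The call was kept by 14 of 24 alternatives. It was lost in the fit of activated arrays alone and of only the groups compared (adjusted p = 0.516), with array weights (0.426) and without array 4, 8, 10, 11, 15 or 16 (0.151 to 0.208), and an anota-type analysis of covariance, which subtracts a fitted slope times the cytosolic difference, gave 0.39 (adjusted p = 0.862). The slope fitted for Tgfbr2 was 0.06, so that hardly any of the cytosolic difference was subtracted. The same analysis called Tgfb1 (1.74, adjusted p = 0.0212) and Smad4 (1.66, adjusted p = 0.102). Over all arrays by limma Tgfb1 was 1.66, Smad4 1.92, Smad7 2.53 and Ski 1.76, with adjusted p from 0.169 to 0.303, and Ski was called among genes above the median mean (0.148). The size of each of these hung on single arrays. Tgfb1 was called without array 15 (2.63, adjusted p = 0.0295) and was 0.69 without array 13 (0.547). Smad4 was called without array 13 or 16 (2.84 and 2.86, adjusted p = 0.0747 and 0.0696) and was 0.98 and 1.0 without array 14 or 15 (0.522 and 0.538). Smad7 was called without array 14 (4.03, adjusted p = 0.0170) and was 1.04 without array 16 (0.491). Ski was called without array 12 or 16 (2.54 and 2.19, adjusted p = 0.0191 and 0.0876) and was 0.97 without array 10 (0.314).

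Other genes of the pathway were counted in lists written from general knowledge. Outside the members, 71 genes had a row. Of these 2 were higher and 6 lower in Foxp3+ cells ex vivo in the cytosol, 2 higher and 3 lower in polysomes, 13 higher and 5 lower in activated cytosol, and 21 higher and 4 lower in activated polysomes, where 4.64%, 3.87%, 26% and 32.4% of all genes were called. The median differences were 0.06, 0.10, 0.19 and 0.44, and for all genes 0.10, 0.09, 0.13 and 0.20. Fitted over the arrays of their own state, 24, 29, 4 and 8 of the 71 were called, beside 28.5%, 28.6%, 4.87% and 8.31% of all genes. For differential translation in activated cells 4 of the 71 were called higher and 3 lower in Foxp3+ cells, beside 7.48% of all genes. Fitted over the activated arrays alone, 0 of the 71 were called, so none of these calls was kept there. The higher ones were Usp11 at 3.67, Tgif2 at 2.64, Furin at 1.80 and Id1, an inhibitor of basic helix-loop-helix factors, at 1.61 (limma, adjusted p = 0.103, 0.0393, 0.0607 and 0.124). The lower ones were Tab2 at -3.37, Wwp1 at -2.81 and Tgfbr3 at -1.25 (limma, adjusted p = 0.0659, 0.0267 and 0.119). Id1 was named after its value was seen. Tab2 and Wwp1 averaged 4.94 and 3.94 in activated Foxp3- cytosol, and Usp11 averaged 3.92 in activated Foxp3- polysomes. These means lie near or below the array medians of 4.85 to 5.07.

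Among 5 receptors and co-receptors, 3 were lower in Foxp3+ cells ex vivo in both fractions, Tgfbr2 and 2 others. In these comparisons 4.64% and 3.87% of all genes were called, cytosolic first. Tgfbr3, or betaglycan, which presents the ligand to the receptors, averaged 5.67 in Foxp3+ and 7.98 in Foxp3- ex vivo cytosol (-2.31 ± 0.27, limma adjusted p = 0.00232), and it was lower in activated polysomes too, at -1.60 (limma, adjusted p = 0.00372). Acvrl1, an alternative type I receptor, was lower ex vivo in the cytosol, at -1.35, and 0.97 higher in activated polysomes (limma, adjusted p = 0.0687 and 0.0635). Of 12 measured genes for storage and activation of latent TGF-β, 4 were higher in activated Foxp3+ polysomes, where 32.4% of all genes were called. In activated Foxp3+ cytosol 1 was higher and 1 lower, where 26% of all genes were called. Furin, the protease that cleaves the TGF-β precursor, was 2.44 ± 0.31 higher in activated Foxp3+ polysomes (limma, adjusted p = 0.000926), beside 0.64 in the cytosol (0.197). Ltbp4, a latent TGF-β binding protein, was 0.97 higher in activated polysomes, and its relative Ltbp3 was lower in activated cytosol, at -1.43 (limma, adjusted p = 0.0330 and 0.0305). Ex vivo, Foxp3+ first, Acvrl1 averaged 4.44 against 5.79 in the cytosol and 4.42 against 6.15 in polysomes. In activated polysomes, Foxp3+ first, Acvrl1 averaged 4.89 against 3.92 and Ltbp4 4.58 against 3.61. Ltbp3 averaged 4.67 against 6.1 in activated cytosol. With array medians of 4.85 to 5.07, the low values among these were not shown to be above background.

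Of 17 measured negative regulators, 4 were higher and 3 lower in activated Foxp3+ cytosol and 4 were higher in polysomes, beside 26% and 32.4% of all genes called in these comparisons. The Smad corepressor Tgif2 was lower in Foxp3+ cytosol, at -3.48 ± 0.40, with -0.83 in polysomes (limma, adjusted p = 0.000855 and 0.175), while its relative Tgif1 was 1.5 and 2.18 higher (0.0828 and 0.0176). Wwp1, a ubiquitin ligase of the pathway, was 2.23 higher in activated Foxp3+ cytosol (limma, adjusted p = 0.00511) and -0.58 in polysomes (0.30). Of 10 measured positive regulators, 4 were higher and 1 lower in activated polysomes. These included the deubiquitinases Usp11, which was 4.07 ± 0.75 higher, and Usp15, which was lower at -1.88 (limma, adjusted p = 0.00607 and 0.0340). In activated Foxp3- cells Wwp1 averaged 3.94 in the cytosol and Usp11 3.92 in polysomes. Both values lie below the array medians of 4.85 to 5.07 and were not shown to be above background. Usp4 was lower in ex vivo Foxp3+ cytosol, at -1.32 (limma, adjusted p = 0.0586).

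The branch that signals through the kinase TAK1 held 5 genes. Of these, 1 was called in activated cytosol and 3 in activated polysomes, beside 26% and 32.4% of all genes. The first was the adaptor Tab2, 2.12 higher in Foxp3+ cells (limma, adjusted p = 0.0418), whose difference in polysomes was -1.24 (0.169). In activated cytosol Tab2 averaged 7.06 in Foxp3+ and 4.94 in Foxp3- cells, the second near the array medians of 4.85 to 5.07 and not shown to be above background. In polysomes Traf6 was 2.01 and Tab1 1.03 higher, and Map3k7, the gene of TAK1 itself, was lower at -0.97 (limma, adjusted p = 0.0603, 0.0648 and 0.0942). Map3k7 was named after its value was seen. Of 8 activin and bone morphogenetic protein receptors, Acvr1b was 1.17 higher in activated polysomes and Bmpr2 0.70 higher in activated cytosol (limma, adjusted p = 0.0136 and 0.131). Bmpr2 averaged 5.16 in Foxp3+ and 4.46 in Foxp3- activated cytosol, near the array medians of 4.85 to 5.07. Genes known to respond to TGF-β numbered 17, of which 8 were higher in activated Foxp3+ cytosol and 7 higher and 1 lower in polysomes, where 26% and 32.4% of all genes were called in either direction. Itgae, which codes for the CD103 integrin chain, averaged 10.7 in Foxp3+ and 5.22 in Foxp3- ex vivo cytosol and differed by 4.28 to 6.05 in the 4 comparisons (limma, largest adjusted p = 8.48e-05). Runx1, a Smad partner in T cells, was 1.09 and 0.56 higher in activated Foxp3+ cytosol and polysomes (limma, adjusted p = 0.0142 and 0.123). Foxp3 is on this list too and was the gene the cells were sorted on. Among markers of other cells, 3 of 7 B cell, 2 of 6 CD8 T and NK cell and 3 of 12 myeloid markers were called higher in activated Foxp3+ cytosol. So were 2 of 9 stromal and endothelial, 1 of 6 platelet and 0 of 7 dendritic cell markers. In each list 0 were lower, beside 26% of all genes called in either direction. The interquartile range of the arrays was 2.62 to 2.90 for activated Foxp3+ and 3.03 to 3.43 for activated Foxp3- cells. The part of these markers and of this range in the counts was not tested.

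The order of group means gave each member its own course. Foxp3+ activated polysomes came first for Tgfb1 at 10.42 ± 0.36 (SD, n = 2) and Foxp3+ activated cytosol for Tgfbr1 at 8.20 ± 0.19, which overlapped with the polysomes of the same cells at 7.88 ± 0.44. Ex vivo Foxp3- cytosol came first for Tgfbr2 at 9.64 ± 0.30, Smad4 at 9.39 ± 0.11, Smad7 at 9.50 ± 0.24 and Ski at 9.52 ± 0.04. Smad2 was highest in activated Foxp3- polysomes, at 8.41 ± 0.87. Of the 7 pairs of neighbours in this order, the arrays overlapped in 2 for Ski, 3 for Tgfb1 and Tgfbr2, 4 for Tgfbr1, Smad2 and Smad4, and 5 for Smad3 and Smad7. Across the 8 group means, which share arrays and normalization, the Pearson correlation was 0.97 between Tgfb1 and Smad3, 0.91 between Smad4 and Smad7, 0.87 between Smad7 and Ski, and -0.93 between Tgfbr1 and Smad4. Between the receptor genes it was -0.27. The genes whose 8 group means were most like those of a member were Col13a1 and Lbh for Tgfb1 (r = 0.99 each), Osr2 and Ngfr for Tgfbr1 (0.99 each), Pex5 and Eya2 for Tgfbr2 (0.98 each), Ahsa1 for Smad2 (0.95), Tmem41a and Fam102a for Smad4 (0.997 each), Tnfaip8l2 for Smad7 (0.99) and Gpr146 for Ski (0.98). With 8 means and 16475 genes such values are a description and carry no p.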

How the data were processed

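RNA of 16 samples in 8 groups of 2 was measured on Affymetrix arrays after whole-transcriptome amplification. The authors normalized them with RMA (R package affy), using updated Entrez gene probe sets, and the deposited values are log2 intensities, used as given. The sources used here do not state if the 2 states were normalized together. Without 64 control probe sets there were 16475 genes, all tested, of which 15780 had a symbol and 15752 of these matched RefSeq. There were no detection calls, and precision is limited by the number of arrays.

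In R 4.3.3 with limma 3.58.1, a mean for each group was estimated by lmFit and eBayes from all arrays together (8 residual degrees of freedom), for 16 comparisons, with two-sided p-values and Benjamini-Hochberg adjustment across the whole table. The fit was tested on simulated data in which a gene varied equally in all 8 groups. That simulation could not test the pooling of spread across the states, which differed in spread in these data. SE is that of the fitted difference, SD is between arrays, and intervals are at 95%. The methods call the samples biological duplicates without saying that they came from separate mice, so p-values measure the spread between these samples. The alternatives were a fit of the groups compared or of the arrays of 1 state, genes above the median mean, an intensity trend, array weights, median centring, cyclic loess, leaving out each array in turn, and an anota-type covariance. Where 1 array was left in a group, it was assumed to vary like the other groups.

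The members and gene lists were chosen with earlier results of these data known. All members are named, with, from each list, up to 3 further genes called between subsets that had the smallest adjusted p, and the genes most like a member whose group means span at least 2. List genes without a row, Smurf2 and Zfyve9 among them, were not analysed here. Promoter stretches were read from the RefSeq table and motifs counted on both strands. Figures were drawn with Python 3.11.15 and matplotlib 3.10.9.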

Additional observations from a re-analysis of the deposited data

Results flagged for a closer look

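The subset difference of Tgfbr2 changed between the states in both fractions, by 3.99 in cytosolic mRNA (limma, adjusted p = 0.00348) and by 2.29 in polysome-associated mRNA (limma, adjusted p = 0.0347). The subset difference of Ski in polysome-associated mRNA changed by 2.83 (limma, adjusted p = 0.0362). The polysome minus cytosolic difference of Tgfbr2 in activated cells differed between the subsets by -1.71 (limma, adjusted p = 0.0983). All 4 were tests of the difference itself. In all 4 the activated subsets came from separate array series, so that series and subset cannot be told apart among activated cells. For the first 3 the array series and the state cannot be told apart either.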

How the results depend on the processing

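With 2 arrays per group, the counts of called members turned mainly on which arrays shared the estimate of spread. Where the fit used only the groups compared, only the arrays of the state compared, or array weights, the ex vivo subset difference called 6, 6 and 6 members in cytosolic mRNA instead of 1, and 5, 5 and 4 in polysome-associated mRNA instead of 1. The activated subset difference called 1, 2 and 2 in cytosolic mRNA instead of 4, and 1 and 1 under the first 2 of these in polysome-associated mRNA instead of 4. The difference between fractions in ex vivo Foxp3- cells called 1, 1 and 2 instead of 0. Differential translation after activation called 0 under all 3 instead of 1, and 2 among genes above the median mean and 2 in the anota-type covariance, where the value of Tgfbr2 turned to 0.39. A fit of only the groups compared called 2 instead of 4 between states in Foxp3+ cytosol and 0 instead of 2 for the change of the subset difference in polysomes, for which an intensity trend called 1. Cyclic loess called 1 instead of 0 between fractions in activated Foxp3+ cells.

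Leaving out 1 array at a time gave 0 to 2 members ex vivo in the cytosol (0 without array 1, 2 without array 10) and 0 to 1 in polysomes (0 without array 2), and 2 to 5 in activated polysomes (2 without array 12). Between states it gave 3 to 6 in Foxp3- cytosol (3 without array 7) and 2 to 4 in Foxp3+ cytosol (2 without array 5). Between fractions it gave 0 to 1 in activated Foxp3- cells (1 without array 12) and 0 to 2 in activated Foxp3+ cells (2 without array 14). For differential translation after activation it gave 0 to 2 (0 without array 4, 2 without array 12), and for the change of the subset difference 1 to 2 in the cytosol (2 without array 9) and 0 to 3 in polysomes (0 without array 1). These fits also held fewer arrays, and the cause of the changed counts was not tested. No fit with a replicate block was made, because the titles number the samples from 1 to 16 and the groups share no number. The anota-type covariance was the 1 paired fit, and the labels do not state the pairing of consecutive numbers that it took.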
